A study of Mus musculus with 6 samples.

Results

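Collagen folding and processing enzymes were followed as 10 genes of the 31053 in the count tables, found by gene symbol. The set was chosen with earlier results of these data known. It holds the prolyl 4-hydroxylase α subunits P4ha1, P4ha2 and P4ha3 with their β subunit P4hb, and the lysyl hydroxylases Plod1 and Plod2. It also holds the collagen chaperone Serpinh1 (HSP47), the procollagen C-proteinase Bmp1 and the C-proteinase enhancers Pcolce and Pcolce2. Procollagen chains are hydroxylated on proline and lysine in the endoplasmic reticulum (ER), fold there into a triple helix that HSP47 binds, and are secreted with propeptides that C-proteinases remove so that fibrils can form. In adipose tissue fibroblastic cells make most of this matrix. The comparisons ask whether the mRNA of this machinery falls with collagen mRNA between ages and housing temperatures.

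The values come from single-cell RNA sequencing of stromal vascular cells, depleted of CD45+ cells, from the inguinal white adipose tissue (iWAT) of C57BL/6 mice. There were 6 libraries, 1 for each combination of age (young, 9 weeks, or aged, 57 weeks) and temperature (thermoneutrality (TN) at 30 °C, 3 days at 6 °C (3D cold) or 14 days at 6 °C (14D cold)). The labels name no transgene, mutation or drug for any group. The number of mice behind each library is not given in the sources used here. The methods say that pooling is noted where it was done, and none is noted for these libraries. Libraries were the samples, and cells were not counted as replicates. With 1 library per group, the p-values of the age and temperature fits rest on departures from additive effects of age and temperature. For each gene edgeR moderates these departures with those of the other genes tested. The p-values do not measure the spread between animals of a group.

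Total depth ran from 52068837 to 88508349 UMIs per library (a UMI marks 1 captured transcript), and libraries shared 30 to 44 cell barcodes in pairs, at most 0.379% of the smaller one. The aged 14D cold library stood apart, with a median of 2588 UMIs per barcode against 6232 to 8954 in the other libraries. Every aged library was shallower than every young one, with medians of 2588, 6232 and 6540 against 7225, 7809.5 and 8954 UMIs. In the aged 14D cold library 38.3% of the cells kept fell into clusters that got no name, against 4.14% to 4.69% elsewhere. Named clusters held 22417 cells of the Dpp4+ fibroblast population, 17975 Icam1+ preadipocytes and 4399 Cd142+ fibroblasts. These 3 populations are the stem and progenitor cells of adipocytes (ASPCs). In each of their clusters 7, 9 or 10 of the 10 markers examined were enriched. Enriched means found in at least 10% of the cluster's cells, at 1.5 times the CPM of the other cells or more. Within each class the UMIs of a library were added up, and levels are given as CPM, counts scaled to the size of the class's library as in the edgeR fit. In each class the young libraries are listed first and in the order TN, 3D cold, 14D cold, and then the aged libraries in that order.

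On GRCm38 the genes lie on 7 chromosomes and are listed here by their GENCODE positions: Plod1 at chr4:147909753-147936767, Pcolce at chr5:137605103-137613784, Serpinh1 at chr7:99345376-99353239, P4ha3 at chr7:100285520-100319699, Plod2 at chr9:92542223-92608428, Pcolce2 at chr9:95637601-95698096, P4ha1 at chr10:59323296-59373304, P4ha2 at chr11:54100095-54131665, P4hb at chr11:120560298-120573253 and Bmp1 at chr14:70474558-70520234. Exons of Pcolce overlap those of Fbxo24 on the same strand and of the antisense gene Gm36266, both of which were counted too, so the Pcolce counts are uncertain where reads fall in shared exons. Exons of Plod2 overlap those of the unnamed transcript Gm38391 on the other strand, which was not counted. The other 8 genes shared no exon with another gene.

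Promoter sequences are shown for P4ha2, Pcolce and Serpinh1, which are among the 4 genes that fell with age in all 3 ASPC populations. The windows run from 250 bases before to 50 bases after the start site in RefSeq (GRCm38.p6), at chr11:54100674-54100973 on the + strand, chr5:137611355-137611654 on the - strand and chr7:99353190-99353489 on the - strand, written 5′ to 3′ on the gene's strand. Capitals mark GGGCGG, the core of a GC box, and ACGTG, the core bound by hypoxia-inducible factors, on either strand.
P4ha2: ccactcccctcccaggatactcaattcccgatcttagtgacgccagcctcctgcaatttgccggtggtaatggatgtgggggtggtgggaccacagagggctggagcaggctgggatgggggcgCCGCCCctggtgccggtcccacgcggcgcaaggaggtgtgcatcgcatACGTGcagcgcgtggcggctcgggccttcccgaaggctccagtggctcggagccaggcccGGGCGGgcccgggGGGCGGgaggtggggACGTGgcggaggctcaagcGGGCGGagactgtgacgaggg
Pcolce: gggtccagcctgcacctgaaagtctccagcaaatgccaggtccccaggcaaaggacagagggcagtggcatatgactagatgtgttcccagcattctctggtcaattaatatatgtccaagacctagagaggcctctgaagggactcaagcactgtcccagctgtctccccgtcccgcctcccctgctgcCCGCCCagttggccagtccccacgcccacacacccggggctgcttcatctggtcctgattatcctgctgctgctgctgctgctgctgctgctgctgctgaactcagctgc
Serpinh1: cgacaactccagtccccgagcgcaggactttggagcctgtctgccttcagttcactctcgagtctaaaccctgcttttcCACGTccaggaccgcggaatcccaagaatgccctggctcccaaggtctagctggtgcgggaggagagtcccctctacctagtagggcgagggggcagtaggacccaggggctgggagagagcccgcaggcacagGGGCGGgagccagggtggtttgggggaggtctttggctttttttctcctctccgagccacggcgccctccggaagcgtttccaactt
Windows were at hand for 8 of the 10 genes, with none for Plod2 and Bmp1. GGGCGG stood in 8 of these 8 and in 35.7% of all 32851 promoter windows of the same length. ACGTG stood in 4 of 8, those of P4ha1, P4ha2, P4hb and Serpinh1, against 19.6% of all windows. TATAAA was found in 2 of the 8, P4ha1 and Plod1 (13.6% of all windows), and CCAAT in P4hb alone (37.4%). Both strands were searched for each motif. A match describes these letters only.

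With age, most of the machinery fell in the ASPCs, and no gene of it rose past the threshold with all 6 libraries. Apart from the rarely detected P4ha3, log2 fold changes of the genes that fell ran from -0.78 (Serpinh1 in Cd142+ fibroblasts) to -0.23 (P4hb in Dpp4+ fibroblasts). Of the 10 genes tested in Dpp4+ fibroblasts, 7 fell (P4ha1, P4ha2, P4hb, Plod1, Serpinh1, Bmp1 and Pcolce). In Icam1+ preadipocytes 6 of 10 fell (P4ha2, P4ha3, Plod2, Serpinh1, Bmp1 and Pcolce), and in Cd142+ fibroblasts 7 of 9 (P4ha1, P4ha2, Plod1, Plod2, Serpinh1, Bmp1 and Pcolce). Among all genes tested, 9.17%, 6.26% and 5.74% fell in these populations, in that order. P4ha2, Serpinh1, Bmp1 and Pcolce fell in all 3, while Pcolce2 passed the threshold in none of them. The test was the quasi-likelihood test of edgeR, which held temperature constant, adjusted over all genes tested (Benjamini-Hochberg, threshold 0.05). A ± value after a log2 fold change is its standard error, taken as its absolute size over the square root of the test's F. P4ha3 in Cd142+ fibroblasts, with 19 UMIs in 6 libraries, was left out by the filter on low counts.

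The median log2 fold change of the genes tested was -0.40 for Dpp4+ cells, -0.36 for Icam1+ cells and -0.45 for Cd142+ cells, beside medians over all genes of -0.00045, -0.0031 and -0.0019. All aged libraries lay below all young libraries for 7 of 10 genes among Dpp4+, 3 of 10 among Icam1+ and 7 of 9 among Cd142+ cells. The same held for 12.7%, 11.7% and 11.7% of all genes tested. Without the temperature term 4, 0 and 4 genes passed the threshold in the 3 populations, and with cells gated by their own markers 7, 5 and 5. Without the shallow aged 14D cold library 6, 5 and 5 passed.

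Other measures moved with age in the same sums, with every gene of the lists named here detected. In Dpp4+ fibroblasts the summed Dpp4+ markers were at 8059.8 to 9738 CPM in young and 7102 to 7594 CPM in aged libraries, the adipocyte markers at 5.04 to 12 CPM in young and 15.5 to 21.3 CPM in aged libraries and the Spp1+ fibroblast markers at 504 to 529.7 CPM in young and 363 to 416 CPM in aged libraries. Endothelial markers ran from 11.2 to 18 CPM in young and 18 to 43.4 CPM in aged libraries there, only just apart, and lymphatic markers from 2.14 to 3.07 CPM in young and 3.16 to 7.55 CPM in aged libraries. In Cd142+ fibroblasts the Cd142+ markers were at 5042 to 5752 CPM in young and 4529 to 4865 CPM in aged libraries, the Icam1+ preadipocyte markers at 7623 to 7719 CPM in young and 5745 to 7107 CPM in aged libraries and the endothelial markers at 11.5 to 14.5 CPM in young and 21.9 to 66.9 CPM in aged libraries. In Icam1+ preadipocytes the lymphatic markers alone had no overlap, at 1.97 to 2.58 CPM in young and 2.59 to 4.14 CPM in aged libraries. The part of these markers in the result was not tested. On cells thinned to equal depth, 6, 5 and 4 genes passed for Dpp4+, Icam1+ and Cd142+ cells. The Dpp4+ population joined clusters of 13462, 8768 and 187 cells, and their mix differed between libraries. The largest held 2499 of 3780, 2407 of 4016 and 3487 of 5000 cells in the young and 781 of 2381, 2180 of 3862 and 2108 of 3378 in the aged libraries. It thus held the majority in all libraries except aged TN. Tested alone, this cluster gave 5 of the 7 calls, without P4hb and Plod1, and the cluster of 8768 cells gave 6, without P4hb. The smallest cluster was not tested alone.

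The α subunits carry the catalytic site of prolyl 4-hydroxylase, and 4-hydroxyproline is what keeps the triple helix stable at body temperature. P4ha1 was at 119.9, 98.1 and 117 CPM in the young and 90.1, 76.3 and 85.5 CPM in the aged libraries of Dpp4+ fibroblasts (log2 fold change -0.41 ± 0.053, adjusted p = 0.000428). Every aged library lay below every young one. In Cd142+ fibroblasts it was at 143, 121 and 152 CPM in the young and 113, 87.8 and 103 CPM in the aged libraries (log2 fold change -0.45 ± 0.084, adjusted p = 0.0029), again with no overlap. In Icam1+ preadipocytes the ages overlapped, at 142, 118 and 144 CPM in the young and 139.9, 121 and 127 CPM in the aged libraries (log2 fold change -0.054 ± 0.065, adjusted p = 0.636).

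P4ha2, another α subunit, fell in each population. Its level was 77.6, 75.6 and 91.1 CPM in the young and 52.5, 51.7 and 60.4 CPM in the aged libraries of Dpp4+ fibroblasts (log2 fold change -0.57 ± 0.054, adjusted p = 4.97e-05), and the aged libraries held 67.4% of the young level by the fit. Icam1+ preadipocytes had 135, 109 and 138 CPM in the young and 104, 89.2 and 109 CPM in the aged libraries (log2 fold change -0.33 ± 0.058, adjusted p = 0.0069). Here the ages were only just apart, since aged 14D cold and young 3D cold both round to 109 CPM, and the call was lost without young 3D cold or aged 3D cold. For Cd142+ fibroblasts the levels were 99.8, 84.7 and 108 CPM in the young and 61.8, 52.6 and 71.8 CPM in the aged libraries (log2 fold change -0.66 ± 0.086, adjusted p = 0.000158), and the ages did not overlap.

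P4ha3, the remaining α subunit, was barely detected. In all cells kept of all 6 libraries it had 211 UMIs, against 47000 for P4ha1 and 36266 for P4ha2. Dpp4+ fibroblasts had 93 UMIs and levels of 0.404, 0.356 and 0.733 CPM in the young and 0.454, 0.781 and 0.421 CPM in the aged libraries, which overlapped. Icam1+ preadipocytes had 33, 10 and 11 UMIs in the young and 13, 4 and 1 in the aged libraries (log2 fold change -1.42 ± 0.39, adjusted p = 0.0452). The fall rests on few molecules and on young TN most of all, and the ages overlapped. Leaving out any 1 library, DESeq2, the marker gate and the removal of cells with high doublet scores each ended this call or left the gene below the filter.

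P4hb, which is also protein disulfide isomerase and serves many secreted proteins besides collagen, had the smallest change among the genes that fell. Dpp4+ fibroblasts had 308, 312 and 346 CPM in the young and 288, 265 and 272 CPM in the aged libraries (log2 fold change -0.23 ± 0.063, adjusted p = 0.0312), and the aged libraries all lay below the young. The call was lost without young 3D cold, young 14D cold, aged 3D cold or aged 14D cold. In Icam1+ preadipocytes the values were 366, 325 and 358 CPM in the young and 346, 295 and 326 CPM in the aged libraries (log2 fold change -0.12 ± 0.065, adjusted p = 0.274). In Cd142+ fibroblasts they were 364, 333 and 388 CPM in the young and 323, 279 and 316 CPM in the aged libraries (log2 fold change -0.24 ± 0.08, adjusted p = 0.0651), without overlap but short of the threshold.

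Lysyl hydroxylases prepare lysines for glycosylation and for crosslinks, Plod1 mainly those of the helix and Plod2 those of the telopeptides. Plod1 in Dpp4+ fibroblasts was at 31, 27 and 31.3 CPM in the young and 24.8, 18.7 and 24.5 CPM in the aged libraries, with no overlap (log2 fold change -0.40 ± 0.067, adjusted p = 0.00214). In Cd142+ fibroblasts it was at 65.1, 50 and 73.1 CPM in the young and 50.7, 41.9 and 48.1 CPM in the aged libraries (log2 fold change -0.40 ± 0.10, adjusted p = 0.0145), where young 3D cold fell inside the aged range. Icam1+ preadipocytes showed 153, 149.6 and 168 CPM in the young and 159.9, 142 and 171 CPM in the aged libraries (log2 fold change 0.0035 ± 0.062, adjusted p = 0.983), and the ages overlapped.

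Plod2 fell in Icam1+ preadipocytes and Cd142+ fibroblasts. Icam1+ preadipocytes had 87.8, 82.5 and 114 CPM in the young and 61.4, 70 and 76.5 CPM in the aged libraries (log2 fold change -0.44 ± 0.075, adjusted p = 0.00623), and each aged library lay below each young one. In Dpp4+ fibroblasts the levels were 23.4, 23.7 and 25.3 CPM in the young and 25.3, 23.7 and 22.3 CPM in the aged libraries (log2 fold change -0.023 ± 0.071, adjusted p = 0.868) and overlapped. Cd142+ fibroblasts had 37.8, 30.4 and 41.3 CPM in the young and 26.5, 26.8 and 28.6 CPM in the aged libraries (log2 fold change -0.40 ± 0.11, adjusted p = 0.0293), without overlap. In Cd142+ fibroblasts the calls of Plod1 and Plod2 were both lost with DESeq2, with the marker gate, and without young 14D cold or aged 14D cold, and that of Plod2 also without young TN or aged TN.

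Serpinh1 encodes HSP47, which binds the folded procollagen helix and releases it on the way out of the ER. It had the largest fall among the genes tested in Dpp4+ and Cd142+ fibroblasts. Dpp4+ fibroblasts were at 1597, 1126 and 1759 CPM in the young and 979, 727 and 986 CPM in the aged libraries (log2 fold change -0.72 ± 0.069, adjusted p = 4.98e-05), so that aged cells held 60.5% of the young level. Cd142+ fibroblasts were at 2435, 1633 and 2608 CPM in the young and 1431, 989 and 1446 CPM in the aged libraries (log2 fold change -0.78 ± 0.087, adjusted p = 3.64e-05), or 58.2%. No aged library reached the lowest young one in either population. In Icam1+ preadipocytes the levels were 2431, 1778 and 2504 CPM in the young and 1904, 1423 and 1823 CPM in the aged libraries (log2 fold change -0.38 ± 0.088, adjusted p = 0.0242), or 77%. There aged TN and aged 14D cold lay above young 3D cold, and at each temperature the aged library was below the young one. The call in Icam1+ preadipocytes was lost without young 3D cold, young 14D cold, aged 3D cold or aged 14D cold.

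Outside the cell, Bmp1 cleaves the C-propeptides of fibrillar procollagens. It fell in Icam1+ preadipocytes from 198, 178 and 241 CPM in the young to 138, 127 and 157 CPM in the aged libraries (log2 fold change -0.54 ± 0.063, adjusted p = 0.000977). Cd142+ fibroblasts had 215, 179 and 275 CPM in the young and 151, 127 and 154 CPM in the aged libraries (log2 fold change -0.61 ± 0.09, adjusted p = 0.000469). Dpp4+ fibroblasts had 462, 435 and 574 CPM in the young and 390.1, 337 and 388 CPM in the aged libraries (log2 fold change -0.39 ± 0.07, adjusted p = 0.00308). In each of these 3 populations all aged libraries lay below all young ones.

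Pcolce binds the C-propeptide region and speeds up cleavage by Bmp1. In Dpp4+ fibroblasts it was at 669.5, 540.1 and 822 CPM in the young and 456, 368 and 456 CPM in the aged libraries (log2 fold change -0.65 ± 0.073, adjusted p = 0.000144), and in Cd142+ fibroblasts at 1144, 795 and 1339 CPM in the young and 652, 583 and 761 CPM in the aged libraries (log2 fold change -0.69 ± 0.094, adjusted p = 0.000224). Neither set of aged libraries overlapped the young. Icam1+ preadipocytes had 1355, 955 and 1454 CPM in the young and 894, 714 and 1056 CPM in the aged libraries (log2 fold change -0.49 ± 0.081, adjusted p = 0.00554), where aged 14D cold lay above young 3D cold. In Dpp4+ and Cd142+ fibroblasts the calls of Pcolce and Serpinh1 were kept under all alternatives tried.

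Pcolce2, the other enhancer, passed the threshold in none of the 3 populations with all libraries and the filter on low counts. Dpp4+ fibroblasts had 1433, 1507 and 1469.9 CPM in the young and 1433, 1581 and 1399.8 CPM in the aged libraries (log2 fold change -0.00061 ± 0.067, adjusted p = 0.997), and the aged 3D cold library was the highest of all. In Cd142+ fibroblasts the levels were 808, 716 and 773 CPM in the young and 759, 907 and 937 CPM in the aged libraries (log2 fold change 0.18 ± 0.10, adjusted p = 0.281), and in Icam1+ preadipocytes 217, 256 and 267 CPM in the young and 159, 230.4 and 246 CPM in the aged libraries (log2 fold change -0.24 ± 0.079, adjusted p = 0.0825). Every library of Dpp4+ fibroblasts lay above every library of Icam1+ preadipocytes. In Icam1+ preadipocytes it fell past the threshold with no filter on low counts, at the finer clustering and without young 14D cold or aged 14D cold, with log2 fold changes of -0.25, -0.33, -0.30 and -0.30 (edgeR). Without young TN or without aged TN, Pcolce2 rose past the threshold in Cd142+ fibroblasts, with log2 fold changes of 0.31 and 0.31.

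**Figure D1:**
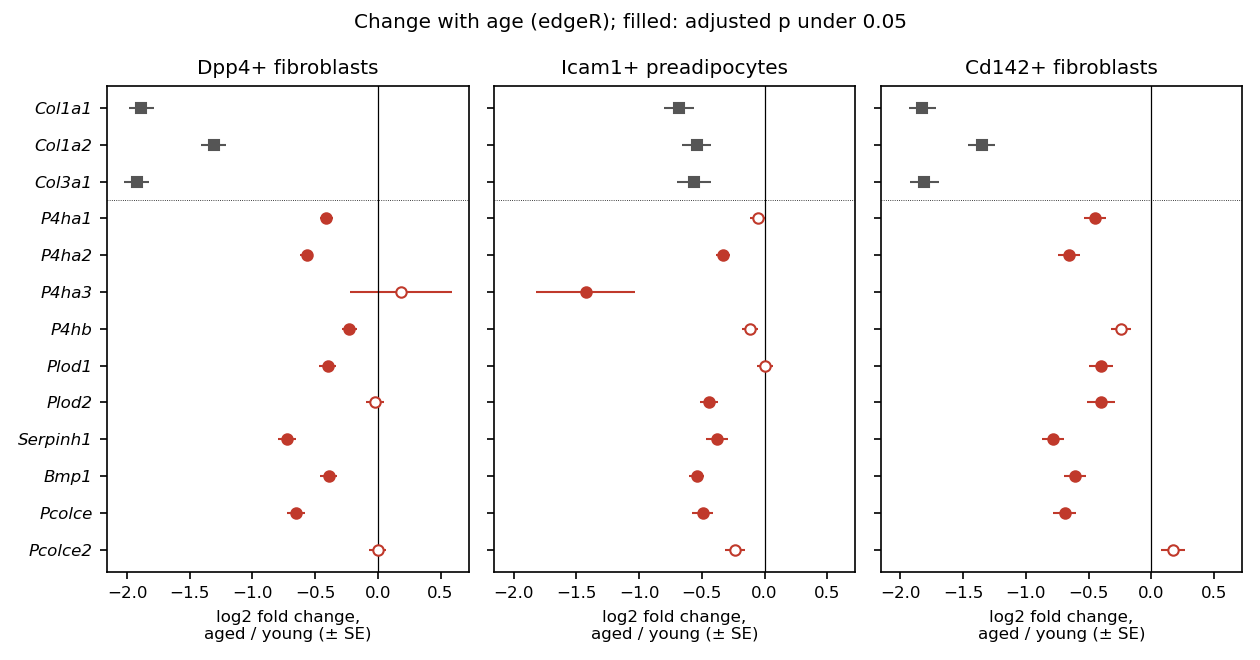
Log2 fold change between aged and young libraries with its standard error (edgeR) for 3 fibrillar collagen genes (squares) and the 10 enzymes and chaperones (circles), in 3 panels for the ASPC populations; filled symbols passed an adjusted p of 0.05. The collagen genes lie between -1.92 and -1.31 in Dpp4+ and between -1.82 and -1.35 in Cd142+ fibroblasts, left of every enzyme there, and between -0.68 and -0.54 in Icam1+ preadipocytes.

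In Dpp4+ and Cd142+ fibroblasts the fitted falls of the collagen genes were larger than those of every gene of the machinery. Col1a1, a chain of type I collagen, was at 6241, 3728 and 6119 CPM in the young and 2052, 884 and 1559 CPM in the aged libraries of Dpp4+ fibroblasts (log2 fold change -1.88 ± 0.10, adjusted p = 8.88e-07). Col1a2, the other chain of type I, was at 10139, 6658 and 10183 CPM in the young and 4805, 2599.7 and 3611 CPM in the aged libraries (log2 fold change -1.31 ± 0.10, adjusted p = 9.18e-06), and Col3a1, the chain of type III, at 10671, 5137 and 10144 CPM in the young and 3409, 1247 and 2393 CPM in the aged libraries (log2 fold change -1.92 ± 0.10, adjusted p = 9.52e-07). Aged Dpp4+ fibroblasts thus held 27.1%, 40.3% and 26.4% of the young levels of these genes, against 60.5% to 114% for the 10 genes of the machinery. In Cd142+ fibroblasts the 3 collagen genes were at 28.2%, 39.2% and 28.5%, and the 9 genes tested at 58.2% to 113%. In Icam1+ preadipocytes the collagen genes held 62.4%, 68.8% and 67.7%, and the 10 genes of the machinery 37.3% (P4ha3) to 100.2% (Plod1), with Bmp1 at 68.7%, P4hb at 92.2% and P4ha1 at 96.3%.

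To ask this within each library, UMIs of each gene were divided by those of Col1a1, Col1a2 and Col3a1 together, a ratio that needs no scaling factor. The 3 collagen genes took 2.68, 1.58 and 2.54% in the young and 1.03, 0.477 and 0.769% in the aged libraries of the UMIs of Dpp4+ fibroblasts. Per 1000 collagen UMIs there were 59, 72.5 and 66.5 in the young and 95.3, 154 and 130.4 in the aged libraries for Serpinh1 in these cells, and all aged libraries lay above all young ones. For P4hb the ratios were 11.4, 20.1 and 13.1 in the young and 28.1, 56.1 and 35.9 in the aged libraries. Here the highest young library and the lowest aged library were 20.1 and 28.1. For Pcolce2 they were 53, 97.1 and 55.6 in the young and 139.6, 334 and 185 in the aged libraries, and for Bmp1 17.1, 28 and 21.7 in the young and 38, 71.3 and 51.3 in the aged libraries.

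All 10 genes had higher ratios in each aged than in each young library of Dpp4+ fibroblasts, with a median difference of 1.24 log2 units and a range from 0.92 (Serpinh1) to 1.83 (P4ha3). In Cd142+ fibroblasts 9 of 10 did, with a median of 1.20, and P4ha3 was the exception. Of all genes tested, 92.9% and 91.4% had ratios to collagen that were higher in every aged library, so these counts are near the share over all genes. In Icam1+ preadipocytes 2 of 10 did (P4ha1 and Plod1), against 21.4% of all genes, and the median difference was 0.22. Each gene without overlap had p = 0.1 in a two-sided exact permutation test over the 6 libraries, the smallest p that 3 against 3 allow, and an adjusted p of 0.143 over the 30 tests of genes and populations, so none could pass the threshold.

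Serpinh1 and Pcolce had the smallest differences in this ratio among the 10 genes in Dpp4+ fibroblasts, 0.92 and 0.99 log2 units. In Icam1+ preadipocytes Serpinh1 was at 62.3, 73 and 73.3 in the young and 75.1, 92.9 and 72 in the aged libraries per 1000 collagen UMIs, and Pcolce at 34.7, 39.2 and 42.6 in the young and 35.3, 46.6 and 41.7 in the aged libraries. The ages overlapped for both, with differences of 0.20 (exact permutation p = 0.3) and 0.081 (exact permutation p = 0.7). Bmp1 differed by 0.033 there (exact permutation p = 1). Taking Col1a1 and Col1a2 alone, or all listed collagens, as the denominator left the counts at 10 and 9 in Dpp4+ and Cd142+ fibroblasts and gave 2 and 3 in Icam1+ preadipocytes.

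**Figure D2:**
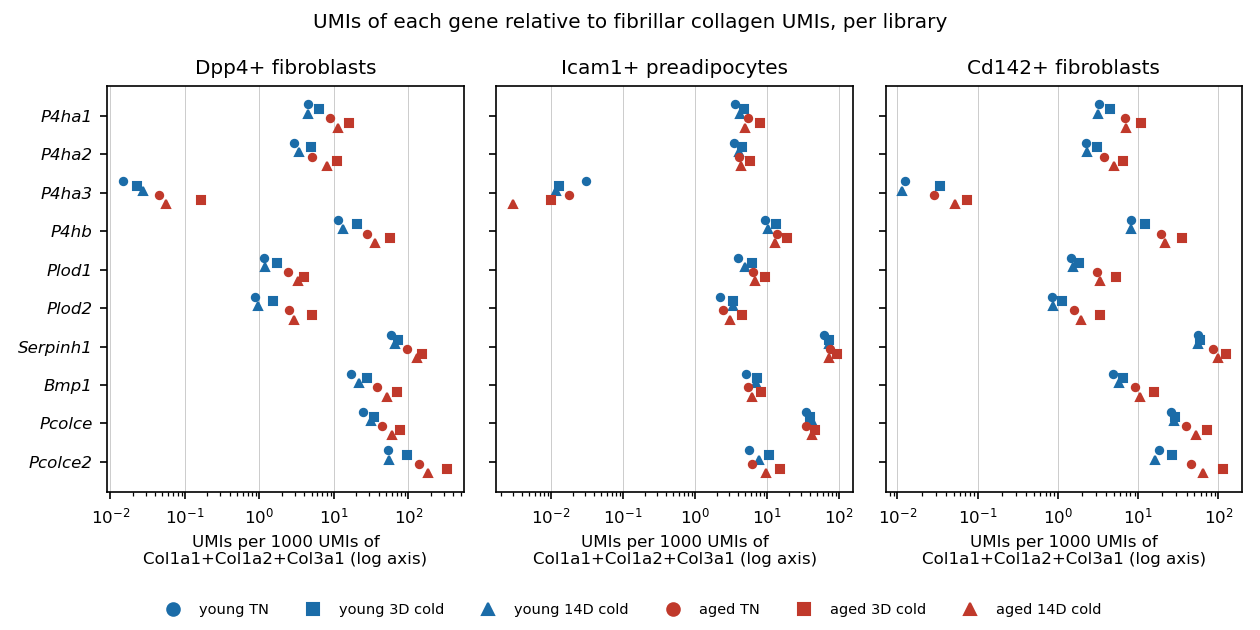
UMIs of each gene per 1000 UMIs of Col1a1, Col1a2 and Col3a1 together (log axis) in each library, in 3 panels for the ASPC populations; circles are TN, squares 3D cold and triangles 14D cold, with young libraries in blue and aged in red. Red lies to the right of blue for all 10 genes in Dpp4+ fibroblasts and for 9 in Cd142+ fibroblasts, and the colours mix for 8 genes in Icam1+ preadipocytes.

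Whether the age effect differed between populations was tested for each pair of them on 12 sums, blocked by library. Between Icam1+ preadipocytes and Dpp4+ fibroblasts 2 of 10 genes passed (2.38% of all genes): the fold change of P4ha1 was higher in Icam1+ preadipocytes by 0.36 ± 0.069 (adjusted p = 0.0253) and that of Plod1 by 0.42 ± 0.087 (adjusted p = 0.039). Between Cd142+ fibroblasts and Icam1+ preadipocytes 2 of 9 passed (1.96% of all genes), P4ha1 with -0.40 ± 0.082 (adjusted p = 0.0249) and Serpinh1 with -0.41 ± 0.079 (adjusted p = 0.0194). The difference of Serpinh1 between Icam1+ and Dpp4+ cells was 0.36 ± 0.092 (adjusted p = 0.0823) and that of Plod2 was -0.42 ± 0.13 (adjusted p = 0.152), both short of the threshold. Between the 2 fibroblast populations none of 9 genes passed by edgeR (2.05% of all genes), and 2 had an unadjusted p under 0.05, Plod2 and Bmp1. How many of all genes had such a p was not counted. Col1a1, Col1a2 and Col3a1 differed by 1.21 ± 0.17 (adjusted p = 0.00693), 0.78 ± 0.12 (adjusted p = 0.0116) and 1.37 ± 0.20 (adjusted p = 0.00723) between Icam1+ and Dpp4+ cells.

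These differences rest on few libraries. The calls of P4ha1 and Plod1 against Dpp4+ fibroblasts were both lost when young TN, young 3D cold, young 14D cold, aged 3D cold or aged 14D cold was left out, and kept without aged TN. Between Cd142+ fibroblasts and Icam1+ preadipocytes no gene passed without young 14D cold or without aged 3D cold. For this pair the call of P4ha1 was also lost without young 3D cold or aged 14D cold, and that of Serpinh1 without young TN. Only without aged TN were both kept.

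Lists of other genes of the collagen pathway were read beside the 10, each as counts in Dpp4+, Icam1+ and Cd142+ cells in that order. Other factors of folding and modification fell in 10 of 11, 7 of 12 and 8 of 11 genes tested, with median log2 fold changes of -0.53, -0.26 and -0.56. They include Fkbp10 at 50 ± 1.15 CPM in young and 31.5 ± 2.62 CPM in aged libraries (log2 fold change -0.67 ± 0.063, adjusted p = 4.97e-05) in Dpp4+ fibroblasts, a prolyl isomerase that works with Plod2, and P3h1 at 42.7 ± 3.89 CPM in young and 23.5 ± 2.02 CPM in aged libraries (log2 fold change -0.84 ± 0.11, adjusted p = 0.000154) in Cd142+ fibroblasts, a prolyl 3-hydroxylase. Sparc, a collagen-binding matrix protein, had 8524 ± 2918 CPM in young and 2489.7 ± 639.9 CPM in aged libraries of Dpp4+ fibroblasts (log2 fold change -1.74 ± 0.10, adjusted p = 1.14e-06). Fibrillar collagens fell in 6 of 8, 5 of 8 and 7 of 7 and other collagens in 11 of 19, 5 of 19 and 10 of 16, with medians of -1.18, -0.39 and -1.13 and of -0.68, -0.17 and -0.63. Some of the other collagens rose, namely 1, 2 and 2, against 9.15%, 7.62% and 6.05% of all genes that rose.

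Downstream of folding, genes for export from the ER fell in 4 of 8, 1 of 8 and 2 of 8, with medians of -0.16, -0.077 and -0.12. Creb3l1, a transcription factor that acts on collagen secretion genes, was at 205 ± 31.3 CPM in young and 127 ± 30.6 CPM in aged libraries of Dpp4+ fibroblasts (log2 fold change -0.71 ± 0.073, adjusted p = 8.63e-05), and it fell in all 3 populations. Propeptide cleavage and crosslinking genes fell in 7 of 11, 6 of 13 and 6 of 12 and rose in 1, 3 and 0, with medians of -0.53, -0.21 and -0.52. Adamts2, the procollagen N-proteinase, was at 397 ± 18.8 CPM in young and 209.7 ± 6.2 CPM in aged libraries of Dpp4+ fibroblasts (log2 fold change -0.92 ± 0.056, adjusted p = 2.09e-06). Lox, lysyl oxidase, fell in Dpp4+ fibroblasts (log2 fold change -0.86 ± 0.056, adjusted p = 3.67e-06) and rose in Icam1+ preadipocytes (log2 fold change 0.54 ± 0.089, adjusted p = 0.00547).

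General ER chaperones fell in 6 of 12, 1 of 12 and 0 of 12 and rose in 0, 1 and 1, with medians of -0.21, -0.076 and -0.017. Hspa5 (BiP) was higher in aged Icam1+ preadipocytes (log2 fold change 0.35 ± 0.093, adjusted p = 0.0395) and Cd142+ fibroblasts (log2 fold change 0.39 ± 0.09, adjusted p = 0.00993), where Serpinh1 was lower. Hypoxia response genes fell in 2 of 12, 0 of 11 and 1 of 11 and rose in 3, 1 and 2, with medians of -0.06, 0.064 and 0.17. Collagen uptake and breakdown genes fell in 2 of 8, 1 of 8 and 3 of 8 and rose in 3, 2 and 4, with medians of 0.20, 0.10 and 0.08. Ctsk, a collagen-degrading cathepsin, was among those that rose in each population, with log2 fold changes of 0.52, 0.41 and 0.77 and adjusted p of 0.00047, 0.0351 and 0.000378 (edgeR).

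**Figure D3:**
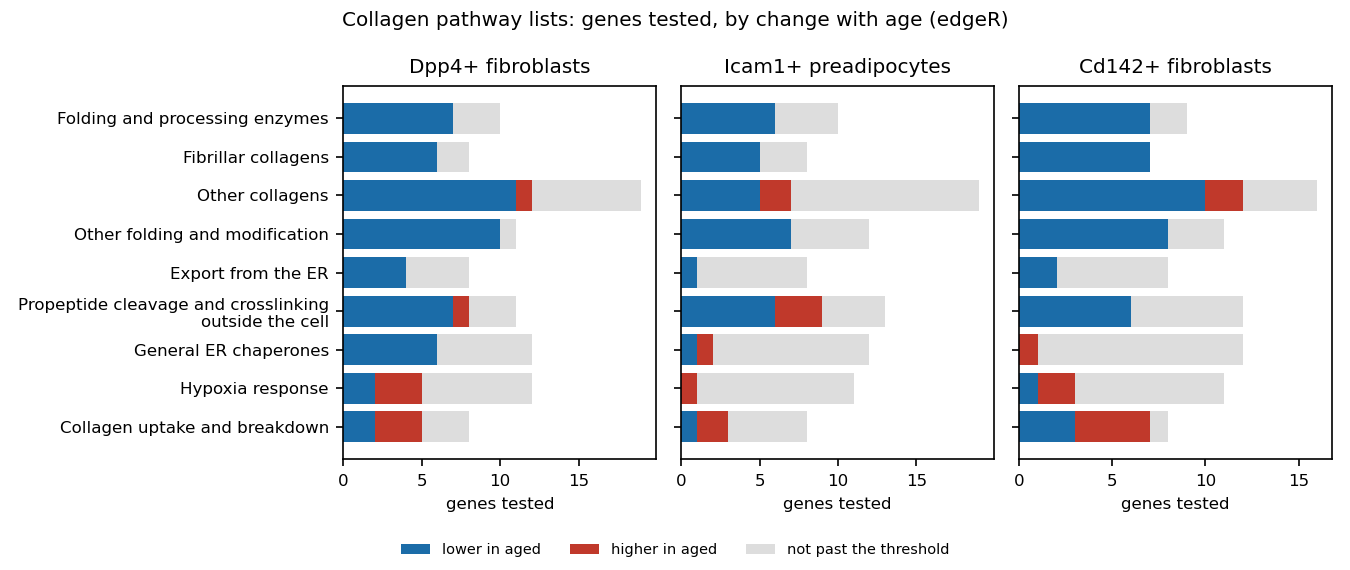
Number of genes tested in the set of 10 (top) and in 8 lists of the collagen pathway, split into those lower in aged (blue), higher in aged (red) and not past the threshold (grey), in 3 panels for the ASPC populations. Blue fills 7, 6 and 7 genes of the top bars with no red, and hypoxia response and uptake and breakdown hold red in each panel.

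In endothelial cells, 2 of 9 genes tested fell with age, Pcolce and Pcolce2 (1.63% of all genes). Pcolce was at 102, 82 and 129 CPM in the young and 59.5, 55.2 and 65.9 CPM in the aged libraries (log2 fold change -0.78 ± 0.11, adjusted p = 0.00275), with no overlap. Pcolce2 was at 77.6, 95.7 and 138 CPM in the young and 32.6, 82.9 and 60.5 CPM in the aged libraries (log2 fold change -0.86 ± 0.17, adjusted p = 0.0267), where aged 3D cold lay inside the young range. Both calls were lost without the temperature term, with the marker gate, at the finer clustering, with equal thinned cells and without cells of high doublet scores, where the fold change of Pcolce2 turned to 0.79, and that of Pcolce2 was also lost without young 14D cold or aged 14D cold. The 6 markers of fibroblastic ASPCs were all detected in these cells, at a summed level of 3752 to 4993 CPM in young and 2960 to 4205 CPM in aged libraries, against 32374 to 76836 CPM in the ASPCs. The 10 Dpp4+ fibroblast markers summed to 933 to 1409 CPM in young and 676 to 905 CPM in aged libraries of endothelial cells, the lymphatic endothelial markers to 214 to 320.3 CPM in young and 78.9 to 184 CPM in aged libraries and the immune markers to 29.6 to 53.5 CPM in young and 15.6 to 27 CPM in aged libraries, without overlap between ages in these 3 lists. The part of these markers in the result was not tested. Serpinh1 in endothelial cells was at 576, 454 and 783 CPM in the young and 458, 401 and 467 CPM in the aged libraries (log2 fold change -0.42 ± 0.10, adjusted p = 0.0613).

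In SMC/pericytes none of 9 genes passed with age by edgeR or by DESeq2 (0.145% of all genes fell), and 3 had an unadjusted p under 0.05. The share of all genes with such a p was not counted. Serpinh1 was at 1304, 895 and 1370.4 CPM in the young and 873, 746 and 781 CPM in the aged libraries (log2 fold change -0.55 ± 0.13, adjusted p = 0.154), without overlap between ages. Bmp1 was at 194, 115 and 162 CPM in the young and 95, 93 and 121 CPM in the aged libraries (log2 fold change -0.60 ± 0.16, adjusted p = 0.194), and young 3D cold lay below aged 14D cold. With 160 to 428 cells per library this class held the fewest UMIs of the 5 tested. Its summed level of the 6 fibroblastic ASPC markers was 16835 to 22292 CPM in young and 14098 to 20803 CPM in aged libraries. Spp1+ fibroblast markers summed to 146 to 245 CPM in young and 99.9 to 136 CPM in aged libraries without overlap. The immune markers summed to 9.21 to 16.5 CPM in young and 18.1 to 57.5 CPM in aged libraries, also without overlap. The part of these markers in the values was not tested.

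Temperature moved the chaperone Serpinh1 and the enhancer Pcolce, with the low point after 3 days of cold. The other enhancer, Pcolce2, was instead lowest at TN in Icam1+ preadipocytes of both ages. Its F test over temperatures there fell just short by edgeR (adjusted p = 0.0502) and passed by DESeq2. Serpinh1 passed the F test over temperatures in Dpp4+ fibroblasts (adjusted p = 0.00752) and Cd142+ fibroblasts (adjusted p = 0.00799), and Pcolce for Dpp4+ (adjusted p = 0.0267), Icam1+ (adjusted p = 0.0259) and Cd142+ cells (adjusted p = 0.0353; all edgeR with age as a term). These are 2 of 10, 1 of 10 and 2 of 9 genes tested, against 7.86%, 5.44% and 2.6% of all genes. None of 9 passed by edgeR or DESeq2 in endothelial cells (1.21% of all genes) or in SMC/pericytes (0.27%), where 7 and 0 had an unadjusted p under 0.05. Among all genes tested there, 1149 of 10760 and 940 of 10371 had such a p by edgeR.

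At both ages the 3D cold library had the lowest level for 6 of 10, 7 of 10 and 7 of 9 genes in Dpp4+, Icam1+ and Cd142+ cells. Serpinh1 and Pcolce were among them in each. The share over all genes was not counted, so these counts only describe the genes. Against TN, 3D cold changed Serpinh1 by -0.47 ± 0.084 (adjusted p = 0.0102) for Dpp4+, -0.44 ± 0.11 (adjusted p = 0.047) for Icam1+ and -0.55 ± 0.11 (adjusted p = 0.00937) for Cd142+ cells, in log2 units. Pcolce differed by -0.31 ± 0.089 (adjusted p = 0.0596), -0.42 ± 0.10 (adjusted p = 0.0419) and -0.34 ± 0.11 (adjusted p = 0.152) in the same populations, and P4ha1 by -0.27 ± 0.065 (adjusted p = 0.0371) in Dpp4+ fibroblasts. P4ha3 also passed in Icam1+ preadipocytes, on the few UMIs given above. Lower after 3D cold were thus 2 of 10, 3 of 10 and 1 of 9 genes in Dpp4+, Icam1+ and Cd142+ cells, against 4.08%, 3.46% and 1.29% of all genes. Of these calls, P4ha1 in Dpp4+ fibroblasts did not pass the F test over temperatures (adjusted p = 0.0575, edgeR). Neither did Serpinh1 and P4ha3 in Icam1+ preadipocytes (adjusted p = 0.0666 and 0.0569, same test). Col1a1 fell by 0.98 on the log2 scale in Dpp4+ fibroblasts after 3D cold (adjusted p = 0.00119, edgeR) and Col3a1 by 1.26 (adjusted p = 0.000402).

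After 14D cold none of the 10 genes differed from TN past the threshold by edgeR in any ASPC population. In Dpp4+, Icam1+ and Cd142+ cells 1, 4 and 0 had an unadjusted p under 0.05. The share of all genes with such a p was not counted for 14D cold against TN. DESeq2 was run over all 3 temperatures together and not on this contrast. Serpinh1 differed by 0.076 ± 0.084 in Dpp4+ fibroblasts and by 0.058 ± 0.11 in Cd142+ fibroblasts. General ER chaperones were higher at 14D in 7, 5 and 4 of 12 genes, with 2.3%, 0.799% and 0.277% of all genes, and median log2 changes of 0.44, 0.29 and 0.41. The medians of the 10 genes were 0.06, 0.083 and 0.11.

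The interaction of age and cold was fitted with 3D cold and 14D cold set as the same level against TN. So defined, the cold effect was not shown to differ between ages for any of these genes. The spread between 3D cold and 14D cold entered the error of this fit. For Serpinh1 in Dpp4+ fibroblasts the interaction was -0.046 ± 0.40 log2 units, where the age effect had a standard error of 0.069. A difference between ages at 3D cold alone could therefore not be judged from this fit. By edgeR's interaction test 0 of 10, 10, 9, 9 and 9 genes passed in Dpp4+, Icam1+ and Cd142+ cells, endothelial cells and SMC/pericytes, and 0, 0, 0, 0 and 1 had an unadjusted p under 0.05. No other tool was run on this interaction. Among all genes 0%, 0%, 0%, 0% and 0.0461% passed. That 1 was Pcolce2 in SMC/pericytes, with 517, 237 and 276 CPM in the young and 240.1, 290.2 and 342 CPM in the aged libraries and an interaction of 1.42 ± 0.25 log2 units (adjusted p = 0.0612, edgeR). Young TN was the highest of its 6 libraries. It was also the highest for the summed Dpp4+ fibroblast markers in SMC/pericytes, at 2623 CPM against 1559 and 1784 CPM in the other young and 1049, 1298 and 1916 CPM in the aged libraries, and their part in this value was not tested. The temperature calls depended on the 3D cold libraries: without young 3D cold no gene passed in the 3 ASPC populations, and without aged 3D cold 1, 0 and 0 did.

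**Figure D4:**
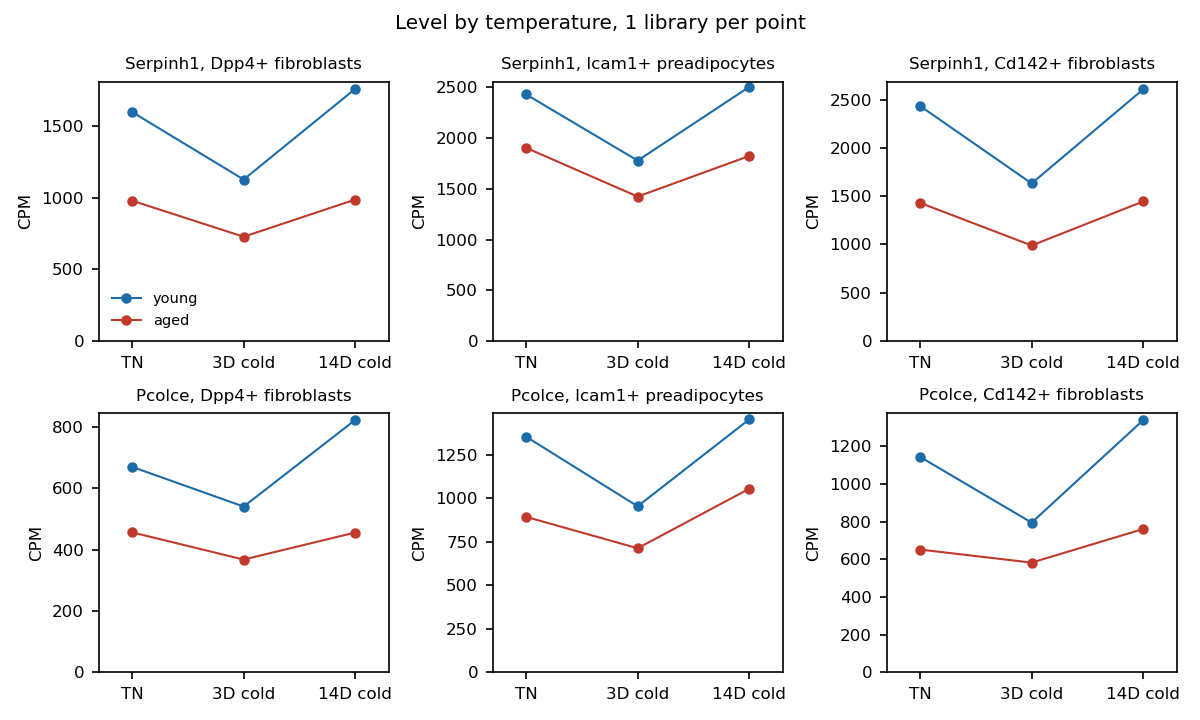
Level (CPM, axes from 0) of Serpinh1 (top) and Pcolce (bottom) at TN, 3D cold and 14D cold in the 3 ASPC populations; each point is 1 library, blue for young and red for aged, and lines join the separate libraries of 1 age. Both genes are lowest at 3D cold at both ages, and the aged line lies below the young line in all 6 panels.

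Across the 30 sums of 5 classes and 6 libraries, the genes with the level most like that of Serpinh1 among 6025 genes with a mean of at least 20 CPM were Col3a1 (0.981), Ctsh (0.973), Col5a2 (0.964), C1qtnf6 (0.963), Gpx7 (0.961), by Pearson's r of log2(CPM + 1). For Pcolce they were Rcn3 (0.989), Col5a2 (0.982), Selenos (0.978), Igsf10 (0.974), Ikbip (0.974). Col5a2, a chain of the fibrillar type V collagen, stood in both lists. The sums share libraries and differ most between cell classes, so these values describe the pattern and were not tested.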

How the data were processed

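Single-cell RNA sequencing (10x Genomics 3′, v3.1 chemistry per the study's methods) was done on iWAT stromal vascular cells sorted against CD45, in 6 libraries, 1 per age and temperature. The deposited matrices hold UMI counts per gene and barcode that the authors made with Cell Ranger on mm10, before any normalization, and R 4.1.1 and Seurat are listed in the submitters' processing notes. A 3′ count covers the transcript end only, so isoforms were not told apart, and shallow cells give fewer UMIs for rare genes such as P4ha3.

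Cells with at least 200 genes and within 3 median absolute deviations of their library were kept, and Leiden clustering (resolution 0.5, 15 components, 20 neighbours; leidenalg 0.10.2, scikit-learn 1.9.0) was run without the 10 genes and the pathway lists, a choice made after clusters were seen. Clusters were named from marker lists by a rule set after clusters were seen. Cells were scored for likeness to simulated doublets. Clusters with more than 50% of cells at a high score got no name, and high-scoring cells in named clusters were left in. Removal of all cells with high scores was an alternative. UMIs were summed per library and class and tested with edgeR 4.0.16 (quasi-likelihood F test, TMM factors, filterByExpr; R 4.3.3), with temperature and age as terms, which leaves 2 residual degrees of freedom. Differences between populations were fitted on 12 sums with library as a block, with 4 residual degrees of freedom. In these fits edgeR moderates the spread of each gene with that of other genes, so the p-values do not rest on these degrees of freedom alone. Ratios to collagen were tested by exact permutation in R. DESeq2 1.42.0, other scaling, filters, cell classes, depth and left-out libraries were alternatives. Genes named from a pathway list are at most the 3 with the largest change past the threshold and a mean of at least 20 CPM in either age. The 10 genes and all lists were chosen with earlier results of these data known.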

Additional observations from a re-analysis of the deposited data

Results flagged for a closer look

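The age effect of 2 genes of the machinery differed between Icam1+ preadipocytes and Dpp4+ fibroblasts by edgeR's interaction test. The log2 fold change of P4ha1 was higher in Icam1+ preadipocytes by 0.36 (adjusted p = 0.0253) and that of Plod1 by 0.42 (adjusted p = 0.039). Over the same pair Col1a1 differed by 1.21, Col1a2 by 0.78 and Col3a1 by 1.37 (adjusted p = 0.00693, 0.0116 and 0.00723).

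Between Cd142+ fibroblasts and Icam1+ preadipocytes the differences were -0.40 for P4ha1 (adjusted p = 0.0249) and -0.41 for Serpinh1 (adjusted p = 0.0194), by the same edgeR test. Col1a1 differed by -1.15, Col1a2 by -0.81 and Col3a1 by -1.25 (adjusted p = 0.000249, 0.000266 and 0.000266). Both comparisons share the Icam1+ preadipocyte sums. When a library was left out, the calls of these genes of the machinery were all kept only if that library was aged TN.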

How the results depend on the processing

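Among values of single genes under an alternative, 1428 kept their side of the threshold, 92 lost the threshold and 81 gained it. The remaining 1 reversed, Pcolce2 in endothelial cells without high doublet scores (0.79). A change of sign was labelled a reversal only where the gene passed the threshold in the main fit or under the alternative. Changes of sign in genes that passed in neither were not counted. With age, no temperature term left 4 genes for Dpp4+, 0 for Icam1+, 4 for Cd142+ and 0 for endothelial cells. Equal cells at 2000 UMIs left 4 for Cd142+ cells, 0 for endothelial cells and 1 for SMC/pericytes. Endothelial cells had 4 with no filter and 0 with the marker gate, resolution 1.0 or high doublet scores left out, and SMC/pericytes 3 with no filter and 1 with fixed cell limits. Over temperature, no filter gave 6 genes for Dpp4+, 7 for Icam1+ and 3 for endothelial cells, DESeq2 gave 3 in Icam1+ preadipocytes, and no age term gave 0 in each ASPC population. No filter gave 5 genes for Cd142+ fibroblasts against Icam1+ preadipocytes. The marker gate gave 1 gene for the ratio to collagen in Icam1+ preadipocytes, 7 pathway genes in endothelial cells and 0 in SMC/pericytes, where no filter gave 23. The cause of these changes was not tested.

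Leaving out each library in turn gave 6 to 7 genes with age for Dpp4+ cells, 3 to 5 for Icam1+ cells (3 without young 3D cold or aged 3D cold), 5 to 7 for Cd142+ cells, 1 to 4 for endothelial cells and 0 for SMC/pericytes. Over temperature it gave 0 to 6, 0 to 6, 0 to 4, 0 to 2 and 0 to 1 in the same order. For differences between populations it gave 0 to 2 (Icam1+ against Dpp4+), 0 to 1 (Cd142+ against Dpp4+) and 0 to 2 (Cd142+ against Icam1+), and for ratios 10, 2 to 4 and 9 to 10. Cluster 1 or cluster 2 of Dpp4+ fibroblasts alone gave 5 and 6 genes. Icam1+ and Cd142+ cells were 1 cluster each, so that alternative gave no value there. No paired analysis was possible because each group had 1 library and no label linked animals between libraries. The ages were already compared within temperature by the temperature term. With 1 library per group, the age and temperature fits leave 2 residual degrees of freedom, and their p-values also draw on the spread of other genes. P4ha3 is too rare for a change to be detectable at this depth in Cd142+ fibroblasts.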

Other observations

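The machinery was also detected in 2 small clusters that were not tested. One of 381 cells had Spp1, Sfrp5 and Matn2 among its leading genes, and 51.4% of its cells lay in the Schwann marker gate. Finer clustering gave 140 Schwann-like cells and, apart from them, 246 cells whose leading genes were Spp1, Sfrp5 and Thbs4, so its values are those of a mixture. In the 381 cells Serpinh1 had 619, 338 and 592 UMIs with young and 381, 89 and 132 with aged mice, in the order TN, 3D cold, 14D cold. That is 1349 CPM over all 6 libraries, and Pcolce was at 572 CPM and P4hb at 230.2 CPM. P4ha3 had 2 UMIs there.

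Among 449 immune-like cells that remained after the sort against CD45, Serpinh1 had 1524 UMIs (471 CPM over all libraries), Pcolce 856 (265 CPM) and Pcolce2 832 (257 CPM). P4ha3 had 0 UMIs in these cells, which allows up to 3 UMIs by counting error alone. These sums hold few cells per library and RNA of other classes was not separated from them.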
